A study of Mus musculus with 4 samples.

Results

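The islet hormone genes are the genes of the peptides by which the endocrine cells of the pancreatic islet are classified. They were taken as 8 symbols, Ins1, Ins2, Iapp, Gcg, Sst, Ppy, Pyy and Ghrl, by a rule that uses the names of the genes and no threshold on a measured value. Every gene probe whose accession maps to one of these symbols was taken, which gave 10 probes, 3 of them for Ghrl and 1 for each other gene, among 56605 gene probes on each array, of which 32994 were named by a symbol, for 22911 genes. The arrays addressed the question of which transcripts of aged islet cells differ after exposure to MOTS-c, a peptide encoded within the mitochondrial 12S ribosomal RNA gene.

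Beta cells release insulin, which lowers blood glucose and which the mouse makes from 2 genes, Ins1 and Ins2. They also release islet amyloid polypeptide (Iapp, amylin). Alpha cells make glucagon (Gcg), which raises blood glucose, delta cells make somatostatin (Sst), which restrains the release of insulin and glucagon from neighboring cells, and PP cells make pancreatic polypeptide (Ppy). Peptide YY (Pyy) and ghrelin (Ghrl) are best known from the gut, and smaller islet cell populations make them too. Each hormone is translated as a precursor, cut by proprotein convertases in the secretory granule and stored until a stimulus releases it.

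Islets of 60-week-old C57BL/6 mice, 4 littermates whose labels give them as male, were freed with collagenase, handpicked and dispersed to single cells. These cells received ex vivo, at 10 μM for 24 h, either a scrambled peptide (replicates 1 and 2) or MOTS-c (replicates 2 and 3), and their total RNA was labeled with Cy3 and hybridized to 4 one-color arrays, 2 per group. No untreated cells were included among these arrays, so both groups share the dispersion, the culture and a peptide. The RNA came from the whole dispersed islet, so fewer cells of a type and less RNA per cell cannot be told apart. The labels do not tie an array to a particular littermate. P-values measure only the spread between these arrays, which limma takes for each probe partly from all probes tested. Between 61.6% and 65.0% of gene spots per array were well above background, that is, above it by the scanner software's own test, and 0 gene spots were saturated. Against the sex label, Xist, an RNA of the inactive X chromosome, was well above background on 4 of 4 arrays at 23.7 to 33.5 times its local background, while 7 probes of Y-linked genes were well above background in 0 of 28 pairs of probe and array. All 4 arrays showed this, so no result can be given without them.

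The control regions of the hormone genes are short and hold binding sites that have been studied in detail, and 4 of them are given here. Transcription factors known to bind some of these motifs, the E box and the A box core, were measured on the same arrays and are described with the related genes. The sequences are those of the RefSeq annotation of GRCm38.p6, 250 bases before the transcription start, written 5′ to 3′ on the strand of the gene, and they lie at chr19:52264047-52264296 (plus strand), chr6:142298175-142298424 (plus strand), chr2:62483654-62483903 (minus strand) and chr16:23890845-23891094 (minus strand). Capitals mark every match, on either strand, to 4 motifs: the TATA box TATAAA, the cyclic AMP response element TGACGTCA, the insulin E box CATCTG, a site of basic helix-loop-helix factors such as NEUROD1, and the A box core CTAAT, a site of homeodomain factors such as PDX1. No matches overlapped one another in these windows.
Ins1: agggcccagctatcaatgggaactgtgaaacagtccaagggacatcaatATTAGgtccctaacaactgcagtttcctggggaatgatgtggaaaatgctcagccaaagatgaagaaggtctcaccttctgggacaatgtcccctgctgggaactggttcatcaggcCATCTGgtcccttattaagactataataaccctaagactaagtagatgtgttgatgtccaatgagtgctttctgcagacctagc
Iapp: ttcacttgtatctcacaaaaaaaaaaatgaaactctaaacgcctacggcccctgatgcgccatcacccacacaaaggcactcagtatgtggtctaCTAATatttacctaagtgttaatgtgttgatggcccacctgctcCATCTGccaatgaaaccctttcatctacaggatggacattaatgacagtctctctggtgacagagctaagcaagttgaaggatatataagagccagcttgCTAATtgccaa
Gcg: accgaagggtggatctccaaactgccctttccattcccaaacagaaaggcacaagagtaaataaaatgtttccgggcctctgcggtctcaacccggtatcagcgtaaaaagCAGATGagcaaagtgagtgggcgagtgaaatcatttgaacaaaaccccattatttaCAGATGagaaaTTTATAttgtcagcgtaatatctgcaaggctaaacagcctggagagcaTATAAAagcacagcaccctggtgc
Sst: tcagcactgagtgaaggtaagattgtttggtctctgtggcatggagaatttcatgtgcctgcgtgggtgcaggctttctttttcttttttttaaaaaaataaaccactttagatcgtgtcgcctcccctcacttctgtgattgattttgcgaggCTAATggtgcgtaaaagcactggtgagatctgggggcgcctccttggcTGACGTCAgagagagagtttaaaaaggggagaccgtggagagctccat

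Ins1 and Iapp, both genes of the beta cell, held the E box and the A box core, with the E box 84 bases before the start in Ins1 and 111 in Iapp. The A box core lay 201 bases before the start in Ins1, and 155 and 11 bases before it in Iapp. The Gcg window held 2 E boxes, 139 and 83 bases before the start, and 2 TATA boxes, 72 and 24 bases before it, with no A box core. Sst was the gene of these windows with a cyclic AMP response element, 48 bases before the start, and it also held an A box core 96 bases before it. Ppy, whose window is not printed, held a TATA box 31 bases before its start. The windows of Pyy and Ghrl held 0 matches to these letters. Of the 32851 RefSeq promoter windows of the same length, 12.4% held the TATA box letters, 1.55% the cyclic AMP response element, 14.4% the E box and 22.2% the A box core. A match of letters describes the window and does not show that a factor was bound. RefSeq windows were found for 7 of the 8 genes, 11 windows in all.

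Of the 10 hormone probes, 5 lay among the brightest probes of the arrays and 5 lay below the array median, the Ghrl probes A_55_P2022399 and A_55_P2506805 just below it. Signals are the processed intensity of a spot, and the 75th percentile of all gene spots on the same array, 1046 to 1167, serves as the yardstick. The Ins2 probe read 303 to 413 times the 75th percentile of its array and ranked 1 or 2 among all gene probes on every array. The Ins1 probe read 234 to 293 times it, at ranks 4 to 6. The Sst probe read 121 to 215 times it, at ranks 26 to 117. The Iapp probe, at 110 to 133 times, ranked 125 to 143, and the Gcg probe, at 41.6 to 48.0 times, ranked 712 to 833. These ranks describe probe brightness within an array and are no transcript amounts, since probes differ in how well they bind. The brightest of these spots, that of Ins2 on scrambled replicate 2, reached 53.4% of the saturation value of 776961. The probes below the median were those of Ppy, at the 37.6 to 42.4 percentile of its array, and Pyy, at the 20.3 to 37.2 percentile. The Ghrl probes A_55_P2022399 and A_55_P2506805 lay between the 43.4 and the 48.7 percentile, and the Ghrl probe A_52_P675556 between the 10.1 and the 31.7 percentile. The defining hormones of beta, alpha and delta cells were thus bright on all arrays, whereas the hormone of PP cells was close to background.

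**Figure D1:**
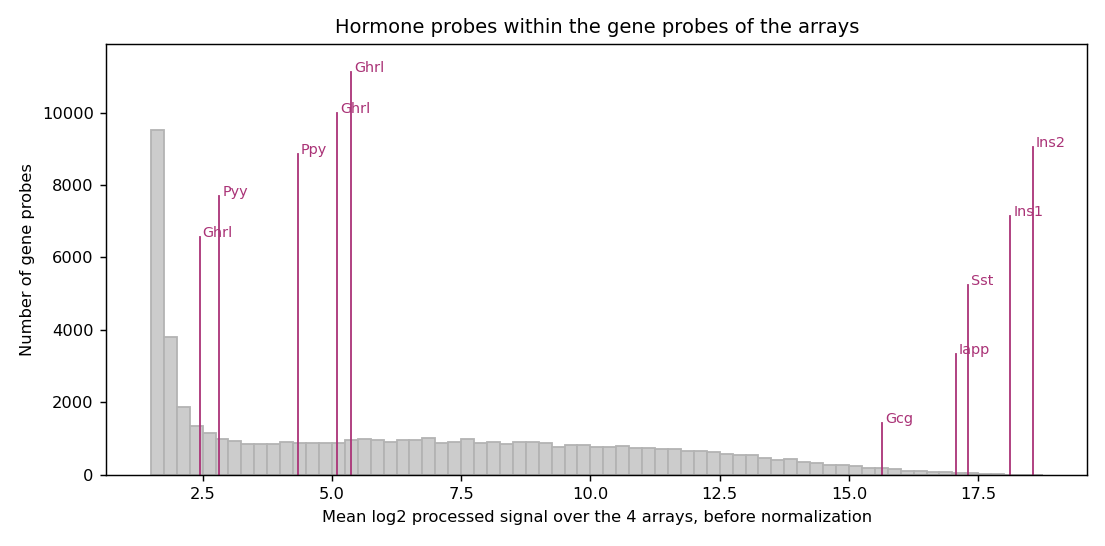
Number of gene probes (vertical axis) by mean log2 processed signal over the 4 arrays before normalization (horizontal axis), with a purple line at each of the 10 hormone probes; the heights of the lines serve only to separate the names. Ins2, Ins1, Sst, Iapp and Gcg lie in the right tail, and Ppy, Pyy and the 3 Ghrl probes lie in the left part.

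The processed signals of the 2 insulin genes overlapped between the groups. The Ins1 probe A_55_P1959318 read 269469 on scrambled replicate 1, 306121 on scrambled replicate 2, 289572 on MOTS-c replicate 2 and 277845 on MOTS-c replicate 3. Both MOTS-c arrays lay between the 2 scrambled arrays, and the highest signal was 1.14 times the lowest. The Ins2 probe A_51_P389597 read 349525 and 432332 with the scrambled peptide and 371576 and 387293 with MOTS-c. Again both MOTS-c arrays lay between the scrambled arrays, with a highest signal of 1.24 times the lowest. After quantile normalization the log2 difference of MOTS-c minus scrambled was -0.04 ± 0.12 (SE, n = 2 per group) for Ins1, with a 95% interval of -0.35 to 0.27 and an adjusted limma p of 0.960. For Ins2 it was -0.05 ± 0.12, with an interval of -0.37 to 0.27 and an adjusted limma p of 0.948. On the linear scale these intervals run from 0.786-fold to 1.21-fold for Ins1 and from 0.774-fold to 1.21-fold for Ins2. The quantile step gives every array the same value at a given rank, so that the Ins2 probe received 18.54 on 3 arrays and 18.64 on scrambled replicate 2, and the 2 scrambled arrays of Ins1 received the same 18.13. When arrays were instead shifted to a common 75th percentile, the differences were -0.09 ± 0.18 for Ins1 and -0.11 ± 0.20 for Ins2. Ins1 and Ins2 are close paralogs, and whether either probe also binds transcripts of the other gene was not tested.

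Iapp and Gcg had the tightest signals of the bright hormones. The Iapp probe A_66_P114856 read 127222 and 139026 with the scrambled peptide and 142686 and 139034 with MOTS-c. The groups touched without overlapping, since MOTS-c replicate 3 and scrambled replicate 2 were all but equal. The normalized log2 difference of Iapp was 0.07 ± 0.12 (SE, n = 2 per group; 95% interval -0.24 to 0.38, limma adjusted p = 0.921). The Gcg probe A_51_P406253 read 47973 and 50186 with the scrambled peptide and 53142 and 52798 with MOTS-c, so that both MOTS-c arrays exceeded both scrambled arrays. The normalized log2 difference of Gcg was 0.11 ± 0.12, with an interval of -0.21 to 0.42 and an adjusted limma p of 0.863. With the 75th percentile shift the differences were 0.01 for Iapp and 0.03 for Gcg, and the groups overlapped for both. The scanner software gave an error of 10.0% for each of these spots, and the highest signal was 1.12 times the lowest for Iapp and 1.11 times for Gcg.

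Sst varied most among the bright hormones, and 1 array set its difference. The Sst probe A_55_P2837304 read 139337 on scrambled replicate 1, 224570 on scrambled replicate 2, 151935 on MOTS-c replicate 2 and 142440 on MOTS-c replicate 3. Scrambled replicate 2 stood 1.61 times above scrambled replicate 1, and the other 3 arrays lay close together, with scrambled replicate 1 the lowest of all. The normalized log2 difference was -0.28 ± 0.22 (SE, n = 2 per group; 95% interval -0.85 to 0.29, limma adjusted p = 0.804). Without scrambled replicate 2 the difference was -0.0044, and it was -0.56 when scrambled replicate 1 was left out instead (limma adjusted p = 0.860). Among the 763 tested probes at least as bright as Gcg, the median range over the 4 arrays was 0.14 on the log2 scale, and 99.2% of these probes had a smaller range than the 0.56 of Sst. Ins2 had its highest signal on the same array as Sst, as did Ins1.

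**Figure D2:**
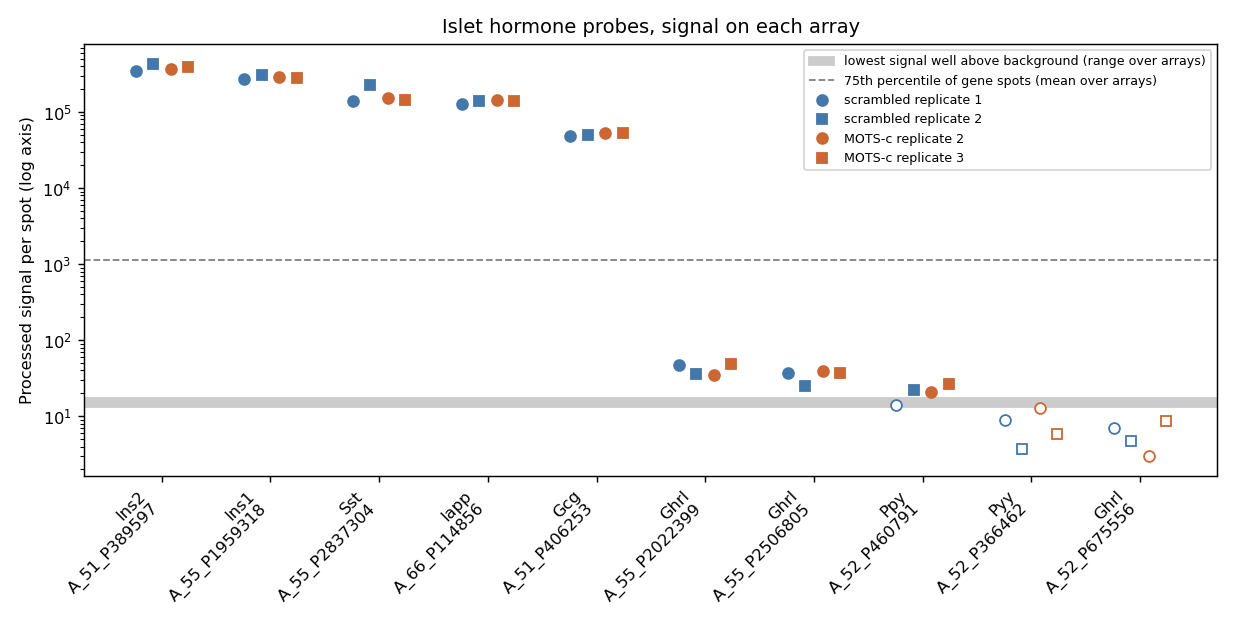
Processed signal per spot (log axis) of each hormone probe on the 2 scrambled arrays (blue) and the 2 MOTS-c arrays (orange); filled symbols are well above background and open symbols are not, the gray band is the range over arrays of the lowest signal well above background, and the dashed line is the mean 75th percentile of gene spots. Scrambled replicate 2 stands apart for Sst at 224570 against 139337 to 151935 on the other arrays, and every signal of Pyy lies below the band.

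The Ppy, Pyy and Ghrl probes were dim, and their values carry more error. The Ppy probe A_52_P460791 read 13.9 and 22.2 with the scrambled peptide and 20.6 and 26.3 with MOTS-c. It was well above background on 3 arrays and not on scrambled replicate 1, and MOTS-c replicate 2 lay below scrambled replicate 2, so that the groups overlapped. Its signals were 1.23 to 1.97 times the local background, with a spot error of 14.4% to 24.4%. The normalized log2 difference of Ppy was 0.32 ± 0.28 (SE, n = 2 per group; 95% interval -0.41 to 1.06, limma adjusted p = 0.828). Without scrambled replicate 1 the difference was -0.053, and it was 0.68 when scrambled replicate 2 was left out instead (limma adjusted p = 1), and -0.0040 after the normexp background correction. The next protein-coding gene to Ppy on its chromosome is Pyy, a member of the same peptide family. The Pyy probe A_52_P366462 read 9.04 and 3.68 with the scrambled peptide and 12.9 and 5.80 with MOTS-c. It was well above background on 0 of 4 arrays and was not tested for that reason, at 0.952 to 1.30 times the local background.

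Of the 3 Ghrl probes, A_55_P2022399 read 46.8 and 35.7 with the scrambled peptide and 35.4 and 49.4 with MOTS-c. Each group held a high and a low array, and the normalized log2 difference was -0.02 ± 0.18 (SE, n = 2 per group; 95% interval -0.50 to 0.45, limma adjusted p = 0.987). The probe A_55_P2506805 read 37.4 and 24.7 with the scrambled peptide and 40.0 and 37.4 with MOTS-c, with scrambled replicate 2 the lowest. Its difference was 0.28 ± 0.22 (95% interval -0.31 to 0.87, limma adjusted p = 0.816), and 0.02 without scrambled replicate 2. Both probes were 2.00 to 2.66 times their local background and well above it on all 4 arrays. The probe A_52_P675556 read 7.05 and 4.72 with the scrambled peptide and 3.00 and 8.70 with MOTS-c, well above background on 0 of 4. The ghrelin probes thus differed in whether they gave a signal well above background.

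No hormone probe passed the test. Of the 10 probes, 8 were well above background on at least 2 arrays and entered the test, which admits the brighter members only. limma called 0 of 8 at an adjusted p under 0.05, against 0% of all 35087 probes tested, and 0 of 8 at an unadjusted p under 0.05, against 7.85% of all probes. The methods' t-test on the same values called 0 after adjustment and 1 of 8 before it, against 6.59% of all probes by that test. The called probe was that of Ins1, whose scrambled arrays carried the same normalized value through the ranks. The normalized values of 3 probes did not overlap between groups, Iapp and Gcg higher with MOTS-c (19.4% of all probes) and Ins1 lower (18.6% of all probes), 38.0% of all probes in both directions. A change of 1.5-fold was reached by 0 of 8, against 5.24% of all probes. The median difference over the 8 probes was 0.02, beside 0.01 over all probes tested. The bright end of the arrays held small differences in general, since 0% of the 763 probes at least as bright as Gcg changed by 1.5-fold and their median absolute log2 difference was 0.05, beside 0.14 over all probes.

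**Figure D3:**
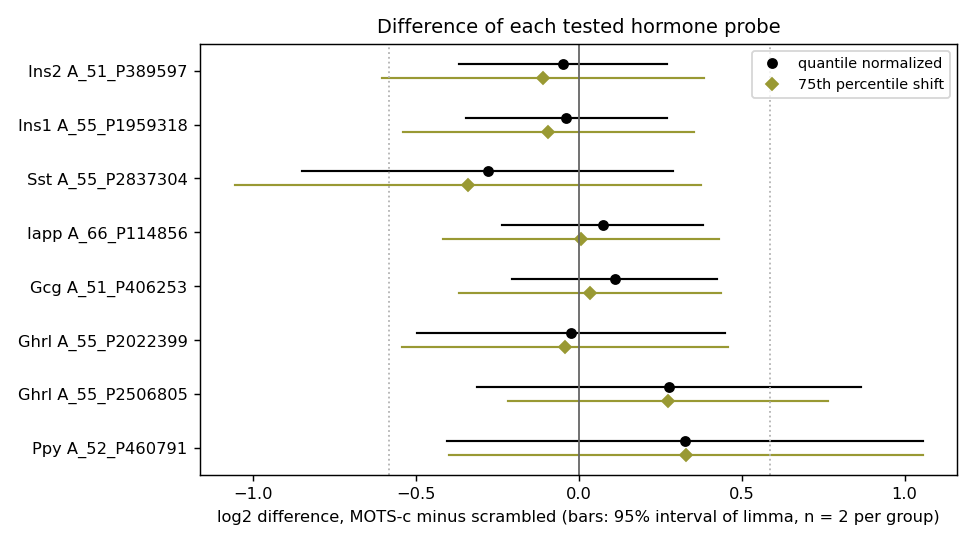
Log2 difference of MOTS-c minus scrambled for the 8 tested hormone probes (points) with the 95% interval of limma (bars, 2 arrays per group), after quantile normalization (black circles) and after the 75th percentile shift (olive diamonds); dotted lines mark 1.5-fold. Every interval crosses 0, and the differences run from -0.28 for Sst to 0.32 for Ppy after quantile normalization.

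To compare the hormones with one another within an array, each was set against Ins2 on the same array, which removes any shift common to the array. The normalized log2 signal of Gcg minus that of Ins2 was -2.99 and -3.04 with the scrambled peptide and -2.88 and -2.82 with MOTS-c. Both MOTS-c arrays exceeded both scrambled arrays, and the change was 0.16. For Iapp minus Ins2 the values were -1.53 and -1.60 with the scrambled peptide and -1.45 and -1.43 with MOTS-c, a change of 0.12 with no overlap. An exact two-sided permutation test gave p = 0.333 for both, the smallest value that 2 arrays against 2 can give, and p = 1 after adjustment over the 6 relations computed. Leaving out 1 array at a time, the change was 0.13 to 0.18 for Gcg and 0.09 to 0.15 for Iapp. On the signals as extracted, before the quantile step, the changes were alike but the groups overlapped. Gcg minus Ins2 was then -2.87 and -3.11 with the scrambled peptide and -2.81 and -2.87 with MOTS-c, a change of 0.15 in which MOTS-c replicate 3 lay just below scrambled replicate 1. For Iapp minus Ins2 the change was 0.12, and MOTS-c replicate 3 at -1.48 again lay below scrambled replicate 1 at -1.46. The absence of overlap for these 2 hormones relative to Ins2 was thus limited to the quantile-normalized values. Ins1 minus Ins2 was -0.41 and -0.51 with the scrambled peptide and -0.45 and -0.46 with MOTS-c, with a change of 0.01. Sst minus Ins2 was -1.38 on scrambled replicate 1, -1.38 and -1.39 with MOTS-c, and -0.92 on scrambled replicate 2, with a change of -0.23. The relative signals of Ins1, Sst, Ppy and Ghrl overlapped between the groups, at changes of 0.01, -0.23, 0.37 and 0.18.

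**Figure D4:**
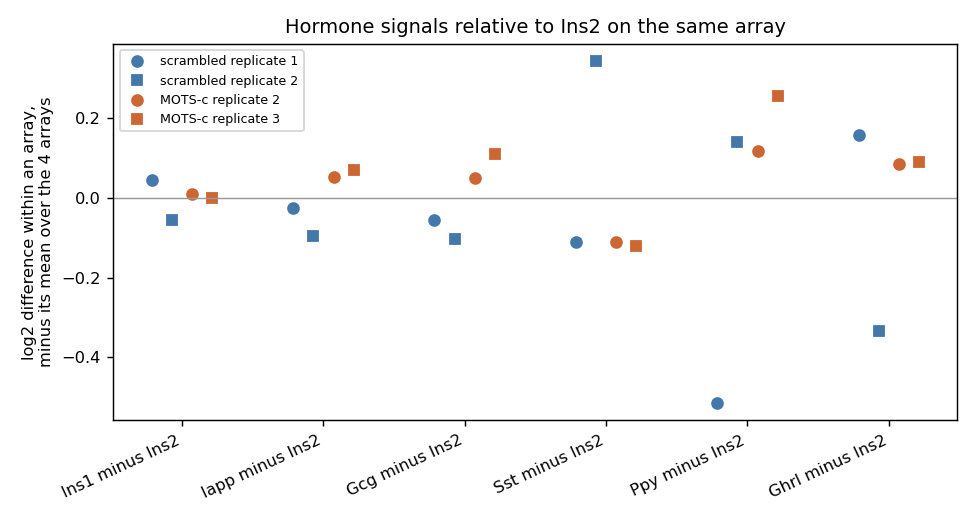
Quantile-normalized log2 signal of each hormone minus that of Ins2 on the same array, centered on its mean over the 4 arrays (vertical axis), for the scrambled arrays (blue) and the MOTS-c arrays (orange). For Iapp and Gcg both MOTS-c arrays exceed both scrambled arrays, by 0.12 and 0.16 on average, which did not hold before the quantile step, while scrambled replicate 2 stands apart for Sst and scrambled replicate 1 for Ppy.

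The receptors of these hormones were measured in part. Of 21 receptor genes and accessory proteins, 16 entered the test and 0 passed it after adjustment, while 6 had an unadjusted limma p under 0.05, 2 higher (3.03% of all probes) and 4 lower (4.82% of all probes), with a median log2 difference of -0.11 beside 0.01 over all probes. Among the somatostatin receptors, Sstr3 read 11.97 and 11.89 in normalized log2 signal with the scrambled peptide and 11.09 and 11.07 with MOTS-c, a difference of -0.85 ± 0.12 without overlap (limma adjusted p = 0.474). Sstr5 differed by -0.34, Sstr4 by -0.14 and Sstr1 by 0.06, and Sstr2 was well above background on 0 arrays. Glp1r, the receptor of the glucagon-like peptide that is cut from the glucagon precursor in gut and brain, read 9.54 and 9.28 with the scrambled peptide and 8.78 and 8.76 with MOTS-c, a difference of -0.64 ± 0.14 (limma adjusted p = 0.509). The glucagon receptor Gcgr differed by -0.09 and Glp2r by 0.11, and Gipr, the receptor of the gut hormone GIP, by -0.70. The insulin receptor Insr differed by -0.13, and the related Igf1r by 0.70. For amylin, whose receptor is Calcr paired with a receptor activity-modifying protein, Calcr differed by -0.14, Ramp1 by -0.04, Ramp2 by -0.92 and Ramp3 by 0.99. Ramp2 was lower and Ramp3 higher on both MOTS-c arrays, as were 18.6% and 19.4% of all probes. Ramp3 was dim, at 4.43 and 4.62 with the scrambled peptide and 5.67 and 5.35 with MOTS-c, while Ramp2 read 10.59 to 11.90 over the 4 arrays. The ghrelin receptor Ghsr differed by 0.04 and Gpr39, a relative of it, by -0.01. The Y receptors Npy2r, Npy4r and Npy5r, which bind peptide YY and pancreatic polypeptide, were not well above background on any array, and Npy1r was so on fewer than 2 and was not tested. The receptor list described here shares Glp1r, Ghsr and Sstr3 with the marker lists given further on.

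The genes that cut and mature the hormone precursors showed small differences. Of 12 genes, 10 were tested, 0 had an adjusted and 0 an unadjusted limma p under 0.05, and the median difference was -0.08. The methods' t-test was not counted over the related lists. The prohormone convertases Pcsk1 and Pcsk2, which cut the precursors of insulin and glucagon, differed by -0.20 and 0.05. Carboxypeptidase E (Cpe), which trims the cut ends, differed by -0.03. Furin differed by -0.25, the largest absolute value of the list, and Scg5, the chaperone of Pcsk2, by -0.18. Mboat4, the enzyme that acylates ghrelin, and Qpct were not well above background on any array.

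The transcription factors of the hormone genes spanned differences from -1.59 to 1.15. Of 24 genes, 20 were tested, 0 passed after adjustment and 4 had an unadjusted limma p under 0.05 (7.85% of all probes), 2 higher (3.03% of all probes) and 2 lower (4.82% of all probes), with a median of 0.10. Of the factors known to bind the E box or A box core marked in the promoter sequences, Pdx1 differed by -0.28, Neurod1 by 0.29 and Nkx6-1 by 0.12. Isl1 differed by -0.07 at its brighter probe and by 0.22 at its other probe. Mafa, which drives the insulin genes in mature beta cells, differed by 0.16. Pax4, which represses glucagon during development, read 10.55 and 10.05 with the scrambled peptide and 8.77 and 8.66 with MOTS-c, a difference of -1.59 ± 0.20 (limma adjusted p = 0.474). Irx2, a factor of alpha cells, differed by 0.68 but was dim, at 4.60 and 4.26 with the scrambled peptide and 5.12 and 5.10 with MOTS-c. Myt1 differed by -0.50. Rest, a repressor of neuronal and endocrine genes, differed by 1.15 but was well above background on the 2 MOTS-c arrays only. It read 3.79 and 2.94 in normalized log2 signal with the scrambled peptide and 4.51 and 4.52 with MOTS-c. Rest thus entered the test only through the group where it was high, which limits its call among the 2 higher. Rest was named after its value was seen.

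**Figure D5:**
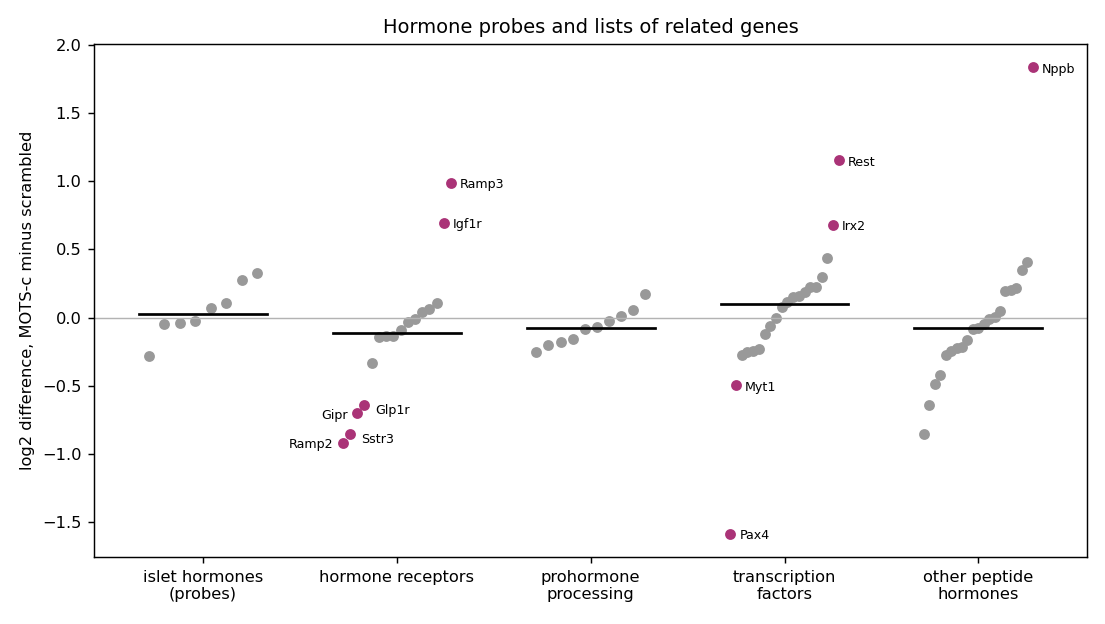
Log2 difference of MOTS-c minus scrambled (vertical axis) for the 8 tested hormone probes and for the tested genes of 4 related lists, 1 point per probe or gene, ordered by value within a list; purple points have an unadjusted limma p under 0.05, none passed after adjustment, and black bars are medians. The hormone probes span -0.28 to 0.32 and the processing genes -0.25 to 0.17. Receptors span -0.92 to 0.99, transcription factors -1.59 to 1.15 and other peptide hormones -0.85 to 1.84. The highest values of the last 2 lists, those of Rest and Nppb, come from probes well above background on 2 arrays only.

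Marker genes of islet and other cell types give the setting of the hormone values. Of 10 beta cell markers, 9 were tested with a median difference of -0.19, and Ucn3, a gene of mature beta cells, was not well above background on any array. Slc2a2, the glucose transporter of mouse beta cells, was dim and differed by -1.33. The summed signal of the beta cell markers was 97.6 to 98.3 times the 75th percentile with the scrambled peptide. With MOTS-c it was 82.9 to 90.8, without overlap. G6pc2 made up 32.8% to 38.1% of this sum and Slc30a8 22.8% to 28.3%. Of the 9 tested markers, 7 were lower with MOTS-c, 6 of them without overlap, against 18.6% of all probes. The 2 higher ones were Mafa by 0.16 and Nkx6-1 by 0.12, both without overlap, against 19.4% of all probes. The processed signals of Ins1 and Ins2 overlapped, whereas the normalized values of Ins1 were lower with MOTS-c without overlap. Alpha cell markers, mostly the signal of Cltrn at 68.8% to 77.7%, summed to 45.4 to 46.1 and 38.2 to 42.1, with 5 of 9 tested, a median of -0.07 and Irx1, Gc and Pou3f4 not well above background, while Gcg was on average higher with MOTS-c. Delta cell markers, 8 of 8 tested with a median of -0.17, summed to 57.9 to 58.1 and 53.1 to 66.7, of which Etv1 alone made up 79.5% to 88.8%. Of these 8 markers, 4 (Rbp4, Lepr, Casr and Crhr2) were highest on scrambled replicate 2, the array on which Sst was highest. Without that array the delta median was 0.023. The same array was highest for 2 of 9 beta, 3 of 5 alpha, 5 of 6 acinar and 5 of 7 duct markers. It was also highest for 1 of 2 endothelial, 1 of 3 mesenchymal and 3 of 4 immune markers, so the count is not particular to delta cells. Casr differed by -2.47 but was well above background on the 2 scrambled arrays only. It thus entered the test only through the group where it was high, which limits its call among the lower markers. Of other cell types, acinar markers summed to 4.11 to 4.66 with the scrambled peptide and 2.32 to 2.93 with MOTS-c, with 6 of 15 tested and the defining enzymes Prss2, Cpb1, Amy2a5 and Pnlip not well above background, and Cela1 made up 73.1% to 75.2% of the sum. Duct markers summed to 14.0 to 15.8 and 9.96 to 10.3, with 7 of 10 tested and Krt19, Sox9 and Cftr not well above background. Krt8 made up 85.0% to 87.8% of this sum and Krt18 most of the rest, at differences of -0.52 and -0.62, while Spp1 differed by -0.0011, Muc1 by 0.16 and Epcam by 0.23. Of 8 markers each, 2 were tested for endothelial cells, 3 for mesenchymal cells and 4 for immune cells, with 6, 5 and 3 not well above background on any array. The part of these cell types in the hormone values was not tested. Over these 8 marker lists, 0 of 44 tested genes passed after adjustment and 13 had an unadjusted limma p under 0.05, against 7.85% of all probes, 1 of them higher and 12 lower with MOTS-c. The higher one was Irx2, whose probe was dim. Of the markers named here, Slc2a2, G6pc2, Slc30a8, Mafa, Nkx6-1, Casr, Krt8, Krt18, Spp1, Muc1 and Epcam were named after their values were seen.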

How the data were processed

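Total RNA of islet cells was amplified, labeled with Cy3, hybridized to one-color Agilent mouse arrays and read with Feature Extraction (version 11.0.1.1). The authors deposited the processed signal intensity of each spot, background subtracted within the array and without normalization between arrays, and a value table whose ratio to these intensities was 0.995 to 1.005. Their methods take the logarithm, the quantile method, a t-test and Benjamini-Hochberg adjustment, and leave out probes with a Flag A that is not defined.

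Here 3671 control spots per array and 96 to 131 outlier spots were left out, log2 intensities of a probe's spots were averaged, and the 35087 probes that 2 or more of the 4 arrays showed well above background were quantile normalized. limma (version 3.58.1, R 4.3.3) compared MOTS-c with scrambled with Benjamini-Hochberg adjustment over all of them, on 2 residual and 2.64 prior degrees of freedom. Groups came from the treatment labels and replicate numbers from the sample titles. Accessions of 32994 probes were named through RefSeq tables of GRCm38.p6. The annotation of the array design uses mm9, so no probe coordinates are given. The steps were tested on simulated data.

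Every hormone probe is named. Of each list, the text names the 3 genes with the largest absolute change among those whose brightest probe was well above background on all 4 arrays, all receptors measured, and genes singled out for their role. Some genes are not reported here. The hormone genes and the lists were chosen with earlier results of these data known. Alternatives were a 75th percentile shift, no normalization, normexp (offset 50), the authors' value table, no or a strict filter on dim probes, leaving out each array, limma with a trend, the methods' t-test, and the mean or the brightest probe of a gene. A block for slide or scan was not run because the 4 arrays share 1 slide and 1 scan.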

Additional observations from a re-analysis of the deposited data

How the results depend on the processing

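No paired analysis was possible because the groups share only replicate number 2. With all arrays kept, 213 values kept their direction and stayed within their limits, 11 moved and 5 reversed. The reversals were those of Ins1 with normexp (2.26e-06), Ppy with normexp (-0.0040) and Ghrl A_55_P2022399 without normalization (0.032), with normexp (0.044) and as the mean over its probes (0.13). Hormone probes without overlap numbered 0 with the 75th percentile shift, and the methods' t-test called 1 at an unadjusted p under 0.05. Over all probes, the t-test called 1 after adjustment and 457 with both 1.5-fold and an unadjusted p under 0.05, where normexp gave 406. No filter on dim probes gave 21525 probes without overlap and 4633 at an unadjusted p under 0.05. Marker medians moved to -0.076 for duct and -0.19 for mesenchymal cells with normexp, and to 0.16 for endothelial and -0.22 for mesenchymal cells without normalization. The cause of these shifts was not tested. Leaving out 1 array at a time, where a lone array of a group is assumed to vary like the other group, differences ranged from -0.053 to 0.68 for Ppy, -0.18 to 0.13 for Ghrl A_55_P2022399, -0.56 to -0.0044 for Sst, -0.021 to 0.054 for Ins1 minus Ins2 and -0.071 to 0.42 for Ghrl minus Ins2. All-probe counts ranged from 1596 to 4576 at an unadjusted p under 0.05 and from 1374 to 3264 with 1.5-fold as well, and hormone probes from 0 to 1. List medians ranged from -0.29 to 0.038 for receptors, -0.17 to 0.00091 for processing genes, -0.079 to 0.11 for transcription factors, -0.24 to 0.06 for other peptide hormones, -0.35 to -0.13 for beta, -0.18 to -0.0063 for alpha, -0.39 to 0.023 for delta, -0.52 to -0.05 for acinar, -0.55 to 0.086 for duct, 0.05 to 0.14 for endothelial, -0.60 to -0.21 for mesenchymal and -0.30 to 0.067 for immune markers. The strict filter gave no value for Ppy. A signal near background limits Ppy, Pyy and Ghrl, and 2 arrays per group limit every probe.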

Other observations

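Some other peptide hormone and neuropeptide genes were bright in these islet cells, and others were at background. Of 33 such genes, 32 were on the array and 21 were tested, 0 of them past the adjusted limma threshold and 1 at an unadjusted p under 0.05, against 7.85% of all probes. Secretin (Sct) read 18.06 to 18.09 in normalized log2 signal over the 4 arrays, Pdyn 17.29 to 17.57, cholecystokinin (Cck) 17.01 to 17.33 and Npy 16.68 to 16.89. These 4 were named for their brightness after their values were seen. The groups overlapped for Sct, Cck and Npy, and Pdyn, the dynorphin precursor, was lower on both MOTS-c arrays by 0.22. The median difference over the list was -0.08. The 3 genes with the largest absolute difference among those well above background on all 4 arrays were Tac1 at -0.64, gastrin (Gast) at -0.49 and galanin (Gal) at -0.42, and the value of each was lowest on MOTS-c replicate 3. The gene with the unadjusted call, Nppb at 1.84, was named after its value was seen and had another probe at -0.29. Its called probe was well above background on the 2 MOTS-c arrays only, so it entered the test only through the group where it was high. Vip, Penk, Ucn3 and 7 other genes of the list were not well above background on any array.

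Among hormone genes whose probe spanned at least 0.5 on the log2 scale over the 4 arrays, Sst and Ppy, the probes of other genes with the most similar profile were sought in a pool of 6015 probes. The measure was the root mean square difference after each probe was centered on its own mean. For Sst these were Usb1 at 0.018, Tmem88 at 0.020 and Olfr1507 at 0.028, and 99 probes of the pool lay within 0.1. For Ppy they were Bex6 at 0.034, Stab2 at 0.043 and Raver1 at 0.046, with 41 probes within 0.1. With 4 arrays such likeness is a description only. The 2 dim probes left out of the test differed by 0.56 ± 0.87 (SE) for Pyy and by -0.29 ± 0.60 for Ghrl A_52_P675556 when all probes were fitted.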
